A study of Mus musculus with 18 samples.

Results

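The genes described here encode the machinery that burns fatty acids in mitochondria and peroxisomes, together with the peroxins, which build the peroxisome. They were chosen by name. Every probe set of the array with a single gene symbol was taken if that symbol began with a prefix of these gene families; those with a match were Acad, Acaa, Acot, Acsl, Cpt1, Cpt2, Crat, Ech, Eci, Ehhadh, Hadh, Decr and Pex followed by a number, and Ppara was taken as well. This gave 45 of the 12488 probe sets, standing for 35 genes, of which 26 had 1 probe set, 8 had 2 and Pex14 had 3. A gene was tested on its brightest probe set if the mean signal over the 18 arrays was at least 118.6 (the 40th percentile over probe sets), and 34 of the 35 genes did. The exception was Acadvl, the very-long-chain acyl-CoA dehydrogenase, whose probe sets had mean signals of 6.7 and 9.5 and gave no usable level. No tested gene had a group mean under the filter. Hadha and the Acat genes had no single-symbol probe set under the rule and were not analysed here.

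A fatty acid is first joined to coenzyme A by an acyl-CoA synthetase. Its acyl group then enters the mitochondrion on carnitine, and a cycle of dehydrogenation, hydration, second dehydrogenation and thiolysis shortens it, releasing acetyl-CoA and electrons for respiration. Peroxisomes run a parallel cycle, with enzymes of their own, on very long and branched chains, and Ppara encodes the nuclear receptor PPARα, which switches on many genes of both routes when fatty acids are plentiful. The proximal tubule of the kidney, which has to power the reabsorption of most of the filtrate, relies heavily on fatty acids as fuel and is rich in both organelles.

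The samples were whole kidneys of mice whose strain was given as C57. At 7 days there were 6 control and 6 Aprt KO mice, with 3 females and 3 males in each group. At 1 month there were 3 and 3, with 1 female and 2 males in each. Aprt KO mice lack adenine phosphoribosyltransferase (Aprt-/-) and cannot recycle adenine, which is oxidised to dihydroxyadenine and precipitates in the kidney; the controls were Aprt+/+, and no other allele or treatment was named for either genotype. Each KO mouse was labelled as the littermate of a control, giving 9 litter pairs numbered here 1 to 6 (7 days) and 7 to 9 (1 month). The questions the design poses are how kidneys with and without the enzyme differ at each age, and how each genotype changes from 7 days to 1 month.

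Signals were linear array intensities, and each array had a trimmed mean between 500.2 and 500.4. The 2 arrays of litter pair 4 had highest signals of 10167 and 10767, against 25718 to 51453 on the other 16. Aprt itself, the check of the genotype labels, went against the label on 4 arrays. These were 7-day controls 1 and 2, 7-day KO 4 and 1-month KO 1. Their signals lay on the other genotype's side of the midpoint between the group medians of the brightest Aprt probe set. At 1 month Aprt still read lower on every KO-labelled array (86.53, 57.8 and 52.25) than on every control (109.5, 107.9 and 103.9). Fitted with no filter on low signals, it was lower in the arrays labelled KO by 0.58 on the log2 scale at 7 days (limma adjusted p = 0.337) and by 0.54 at 1 month (adjusted p = 1), so neither difference was called. The genotypes below are therefore those of the labels, and results that rest on these arrays are also given without them. All 33 measured proximal tubule markers passed the filter, as did all 10 measured markers of the thick limb and distal tubule.

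The promoters of the 4 genes with the largest called rise with age in controls, Ehhadh, Acadm, Acaa1b and Echs1, are shown because these genes changed together in the results below. Each is a window of 300 bases (250 before and 50 after the start of the gene) from the RefSeq promoter table of build GRCm38.p6, written 5′ to 3′ on the gene's own strand. Capitals mark AGGTCA or its reverse complement TGACCT, the half-site to which PPARα and its partner RXR bind in pairs. The Ehhadh window lies at chr16:21787785-21788084, the Acadm window at chr3:153944594-153944893, the Acaa1b window at chr9:119157044-119157343 and the Echs1 window at chr7:140116372-140116671, all on the minus strand.
Ehhadh: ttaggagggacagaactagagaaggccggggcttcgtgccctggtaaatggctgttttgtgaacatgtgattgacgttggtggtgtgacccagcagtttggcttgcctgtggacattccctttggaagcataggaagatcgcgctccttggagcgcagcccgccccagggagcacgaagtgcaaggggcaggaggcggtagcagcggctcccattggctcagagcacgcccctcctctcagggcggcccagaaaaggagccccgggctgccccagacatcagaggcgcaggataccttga
Acadm: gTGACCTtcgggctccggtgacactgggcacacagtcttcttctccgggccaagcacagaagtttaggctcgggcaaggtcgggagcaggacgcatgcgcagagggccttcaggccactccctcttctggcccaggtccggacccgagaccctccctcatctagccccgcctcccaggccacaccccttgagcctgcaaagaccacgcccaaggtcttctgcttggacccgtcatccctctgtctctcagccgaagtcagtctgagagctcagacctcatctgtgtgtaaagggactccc
Acaa1b: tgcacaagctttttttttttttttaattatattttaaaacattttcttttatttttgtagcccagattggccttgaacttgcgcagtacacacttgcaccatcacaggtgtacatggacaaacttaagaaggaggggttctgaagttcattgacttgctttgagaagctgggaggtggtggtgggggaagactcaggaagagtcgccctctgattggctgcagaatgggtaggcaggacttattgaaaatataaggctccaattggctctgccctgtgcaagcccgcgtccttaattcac
Echs1: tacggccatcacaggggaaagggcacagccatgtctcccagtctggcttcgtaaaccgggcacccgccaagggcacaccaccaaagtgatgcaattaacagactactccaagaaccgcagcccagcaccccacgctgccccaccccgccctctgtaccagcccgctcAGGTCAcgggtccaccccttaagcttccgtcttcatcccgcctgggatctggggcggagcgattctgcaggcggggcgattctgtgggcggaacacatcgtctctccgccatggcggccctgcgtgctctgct
The table held 30 windows for 28 of the 35 genes. AGGTCA occurred on either strand in 4 of the 30 windows (13.3%), those of Acadm, Echs1, Cpt1a and Acadvl, against 16.3% of all 32851 windows. The paired motif AGGTCANAGGTCA, which contains the half-site, was in 0 of the 30 windows and in 0.0396% of all windows. These counts describe the letters in these windows and say nothing of binding.

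From 7 days to 1 month more genes of the set rose than fell in control kidneys. Of the 34 tested genes 16 rose, 3 fell and 15 did not pass the test (limma, Benjamini-Hochberg adjusted p under 0.05 over 5744 genes). The background was 14.8% of all tested genes called higher and 26.1% called lower. The median log2 change was 0.42 for the 34 genes and -0.11 for all genes tested, and 29 of the 34 had a positive change. In the KO-labelled kidneys 20 rose, none fell and 14 did not pass, on a background of 15% higher and 25.3% lower, with medians of 0.57 and -0.12. All 16 genes called higher in controls were also called higher in KO, and they made up 80% of the KO calls. The remaining 4, Acaa2, Cpt2, Eci1 and Hadhb, also had positive changes in controls, between 0.29 and 0.41, and their genotype by age interaction was not called.

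**Figure D1:**
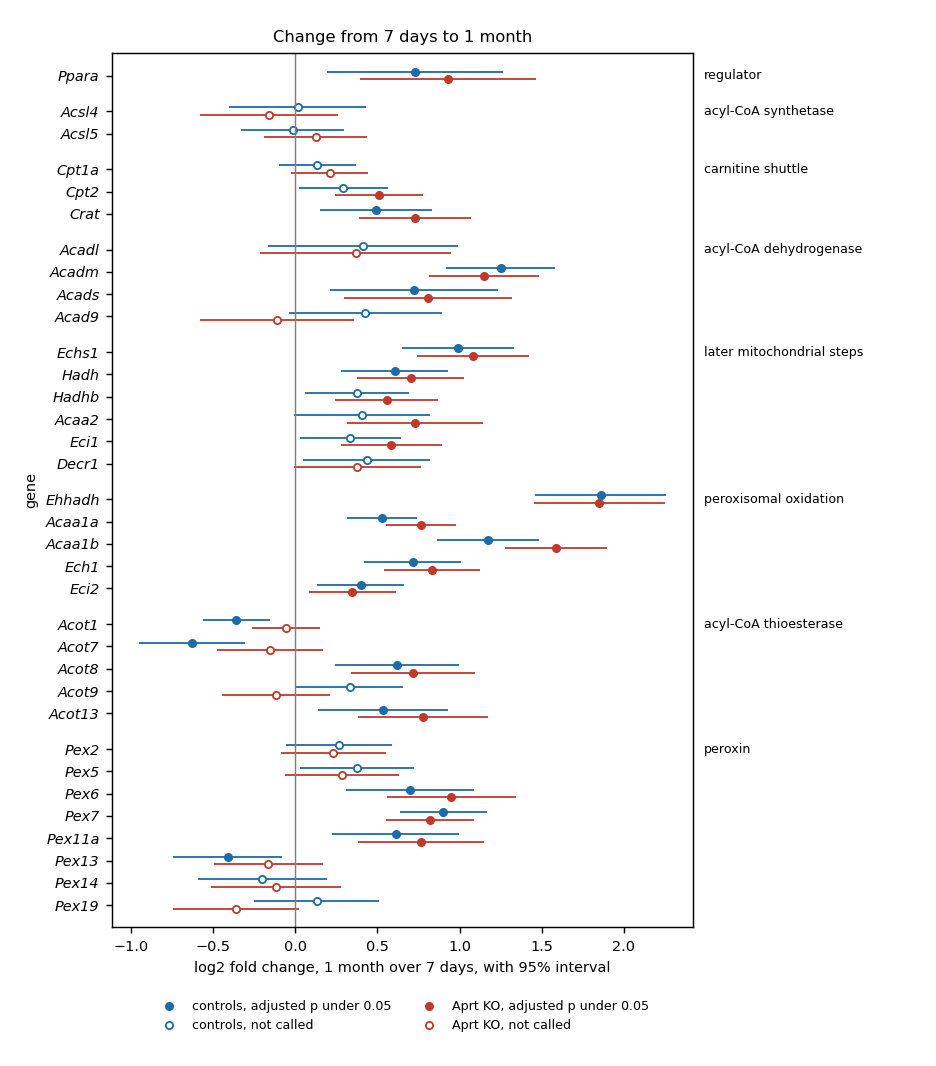
Log2 change from 7 days to 1 month (x axis) for each of the 34 tested genes (y axis, grouped by role), in controls (blue) and Aprt KO (red); points are limma estimates with sexes weighted equally, lines are 95% intervals, and filled points have an adjusted p under 0.05. Ehhadh stands farthest to the right at 1.86 and 1.85, the 5 peroxisomal oxidation genes are all filled and positive, and Acot7, Pex13 and Acot1 are filled and negative in controls.

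The regulator Ppara rose in both genotypes. In 7-day controls its signal ranged from 177 to 369 with a median of 286.2, and at 1 month the 3 controls had 529.1, 474.5 and 411.3. The KO-labelled arrays ranged from 152.8 to 351.9 (median 218.9) at 7 days and had 318.2, 664.7 and 491.2 at 1 month. All 1-month controls lay above all 7-day controls, while the 1-month KO female overlapped the highest 7-day KO array. The log2 change was 0.73 (SE 0.25, adjusted p = 0.0286) in controls and 0.93 (SE 0.25, adjusted p = 0.0068) in KO. The call in controls was lost when any of 7-day controls 3 and 4 or 1-month controls 1 and 2 was left out, with the adjusted p reaching 0.584; in KO it held under all 30 alternatives.

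Of the 5 tested genes for activation and the carnitine shuttle, 1 passed the test in controls and 2 in KO. The acyl-CoA synthetases Acsl4, which favours arachidonic acid, and Acsl5 were not called in either genotype, and the 95% intervals for Acsl5 ran from -0.33 to 0.30 in controls and from -0.19 to 0.44 in KO. Cpt1a, the gatekeeper that loads long chains onto carnitine at the outer mitochondrial membrane, had signals of 4583 to 6384 (median 5092) in 7-day controls and 5569, 5687 and 5799 at 1 month. In the KO-labelled arrays it ranged from 4444 to 5021 (median 4644) and then read 5456, 5651 and 5290. The 1-month KO arrays stood above all 7-day KO arrays, but in controls the ages overlapped. Its changes of 0.13 (interval -0.10 to 0.37) and 0.21 (-0.02 to 0.45) were not called.

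Cpt2, which takes the acyl group off carnitine inside the mitochondrion, ranged from 2487 to 3826 (median 3154) in 7-day controls and read 3752, 3983 and 3917 at 1 month. In KO it went from 2358 to 3428 (median 2976) to 4066, 4574 and 4062, with no overlap between the ages. The change was called in KO (0.51, SE 0.13, adjusted p = 0.00385) and was 0.29 (adjusted p = 0.0788) in controls. Crat, which moves acetyl groups onto carnitine, rose in both, by 0.49 and 0.73, but its second probe set gave 0.10 and 0.18 and was not called, and with the litter pair as a random block the control call was lost (adjusted p = 0.0513).

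Among the acyl-CoA dehydrogenases, which open the mitochondrial cycle, Acadm had the largest change. The gene of the medium-chain enzyme had signals of 3107 to 4563 (median 3875) in 7-day controls and 7491, 8296 and 14270 at 1 month. In KO-labelled kidneys it ranged from 2408 to 3549 (median 2890) and then read 5618, 7253 and 7889. In each genotype every 1-month array was above every 7-day array. The log2 change was 1.25 (SE 0.16, adjusted p = 5.63e-06) in controls and 1.15 (SE 0.16, adjusted p = 1.52e-05) in KO. Acads, the short-chain enzyme, rose by 0.73 (adjusted p = 0.0236) and 0.81 (adjusted p = 0.0126). Second probe sets were tested in another limma fit, with every single-symbol probe set as a row and no filter. There the second Acads probe set gave 0.39 (adjusted p = 0.0687) and 0.46 (adjusted p = 0.0337). In that fit the brightest Acads probe set had adjusted p-values of 0.0373 and 0.0205.

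The long-chain enzyme gene Acadl varied widely within groups. Its signals ran from 541 to 1303 (median 757.7) in 7-day controls and were 726.5, 1066 and 1975 at 1 month. The KO-labelled arrays ranged from 542.7 to 1279 (median 711.8) and read 727.4, 1229 and 1531 at 1 month. Ages overlapped in both genotypes, and the changes of 0.41 and 0.37 were not called. Acad9, better known for assembling respiratory complex I, was not called either, at 0.43 in controls and -0.11 in KO.

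All 6 later mitochondrial genes had positive changes in both genotypes, and 2 passed the test in controls and 5 in KO. Echs1, the short-chain enoyl-CoA hydratase, ranged from 1365 to 2127 (median 1714) in 7-day controls and read 4397, 2537 and 3320 at 1 month. In KO it went from 1098 to 1787 (median 1530) to 3602, 2853 and 2704. Neither genotype had any overlap between ages, and the change was 0.99 (SE 0.16, adjusted p = 8.32e-05) in controls and 1.08 (SE 0.16, adjusted p = 3.42e-05) in KO. Hadh, the short-chain hydroxyacyl-CoA dehydrogenase, rose by 0.61 and 0.70 without overlap. Acaa2, the mitochondrial thiolase, ranged from 8189 to 14410 (median 13360) in 7-day controls and had 21020, 12860 and 13410 at 1 month, so that the female alone stood above the 7-day range. In KO the range of 7249 to 13420 (median 11450) gave way to 19710, 14680 and 15990, with no overlap. The change was 0.41 (SE 0.20, adjusted p = 0.109) in controls and 0.73 (SE 0.20, adjusted p = 0.0063) in KO. Hadhb, a subunit of the trifunctional protein, and Eci1, an isomerase for unsaturated chains, were called in KO at 0.56 and 0.58. Decr1, the dienoyl-CoA reductase, was called in neither, at 0.43 and 0.38.

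All 5 tested peroxisomal oxidation genes rose in both genotypes. Ehhadh, the peroxisomal bifunctional enzyme, had signals of 146.6 to 273.7 (median 225.7) in 7-day controls and 557.9, 1159 and 1289 at 1 month. In KO-labelled kidneys it ranged from 142.7 to 263.8 (median 211.4) and then read 680.7, 964.3 and 1003. The lowest 1-month array was above the highest 7-day array by a wide margin, and in each genotype the female was the lowest of the 3. The log2 change was 1.86 (SE 0.19, adjusted p = 3.91e-07) in controls, a 3.63-fold rise, and 1.85 (SE 0.19, adjusted p = 4.16e-07) in KO.

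The 2 peroxisomal thiolases are close paralogues, and cross-hybridisation between their probes was not tested. Acaa1b ranged from 1921 to 3346 (median 2684) in 7-day controls and read 7302, 4499 and 5549 at 1 month. In KO the range of 1878 to 2579 (median 2359) moved to 8084, 5669 and 6209. There was no overlap, and the change was 1.17 (SE 0.15, adjusted p = 5.35e-06) in controls and 1.59 (SE 0.15, adjusted p = 1.5e-07) in KO. In the fit of all single-symbol probe sets with no filter, a second Acaa1b probe set rose by 0.78 (adjusted p = 0.000854) and 1.39 (adjusted p = 2.18e-06). Acaa1a ranged from 1770 to 2310 (median 2039) in 7-day controls and had 3070, 2857 and 2760 at 1 month. The KO-labelled arrays spanned 1591 to 1931 (median 1820) and then 3219, 2924 and 2860. Here too the ages were separate, with rises of 0.53 (SE 0.10, adjusted p = 0.000433) and 0.76 (SE 0.10, adjusted p = 9.83e-06). The isomerases Ech1 and Eci2 rose by 0.71 and 0.40 in controls and by 0.83 and 0.35 in KO.

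**Figure D2:**
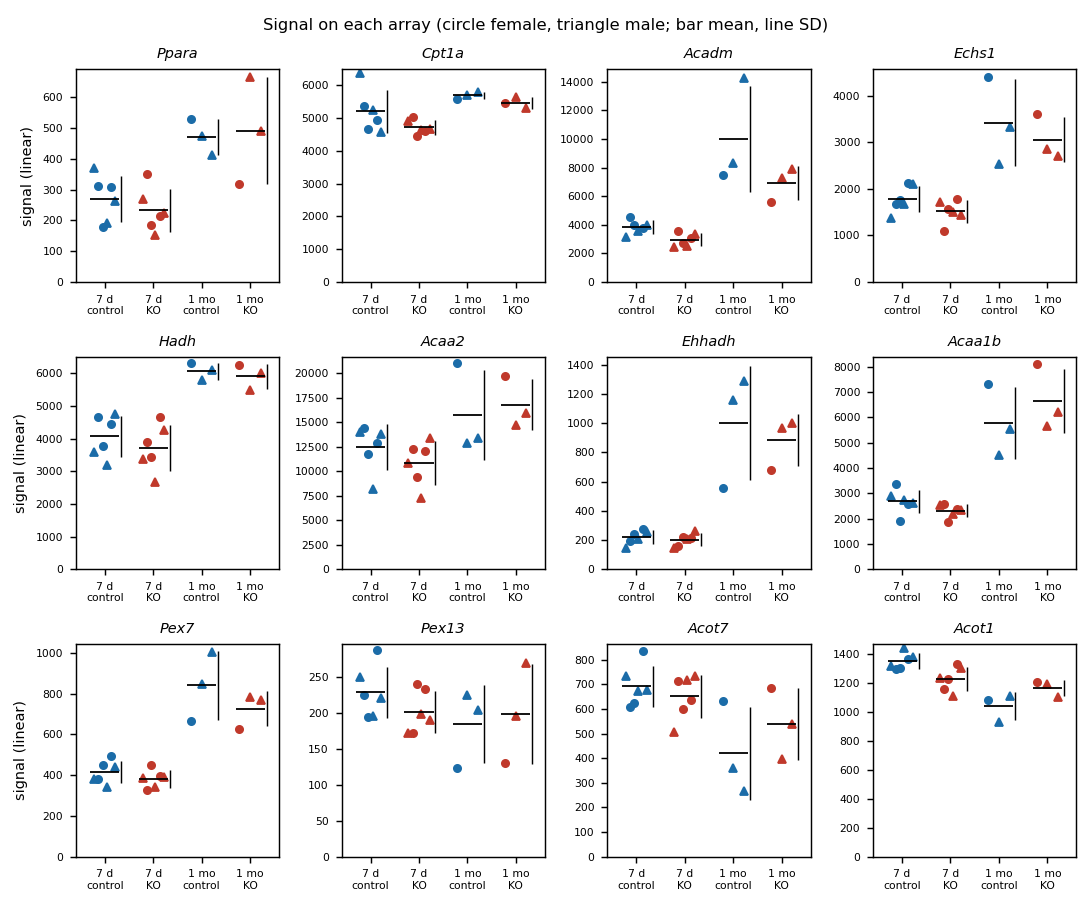
Linear signal (y axis) on each of the 18 arrays for 12 genes, in the 4 groups (x axis); circles are females, triangles males, horizontal bars the group means and vertical lines 1 SD either side. Ehhadh, Acadm, Echs1, Acaa1b and Pex7 are separate between ages in both genotypes, Cpt1a is nearly level, and the falls of Acot7 and Pex13 rest on overlapping groups.

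The acyl-CoA thioesterases, which release the free acid from coenzyme A, divided by direction in controls. Acot8, a peroxisomal member, rose by 0.62 and 0.72 in controls and KO, and Acot13, associated with mitochondria, by 0.53 and 0.78. Acot7, a cytosolic member best known from brain, had 608.2 to 834.4 (median 674.8) in 7-day controls and 632.6, 360.2 and 268.1 at 1 month, the female lying inside the 7-day range. In KO it had 505 to 734 (median 676) and then 683.7, 394.7 and 538.9. Its change was -0.63 (SE 0.15, adjusted p = 0.00302) in controls and -0.16 (adjusted p = 0.451) in KO.

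Acot1, a cytosolic member with near-identical relatives from which the probes may not tell it apart, ranged from 1297 to 1446 (median 1344) in 7-day controls and read 1082, 929.1 and 1114 at 1 month. All 3 lay below the 7-day range, and it was the 1 gene of the set called lower in controls without overlap. In KO the 7-day range of 1114 to 1330 (median 1235) overlapped the 1-month values of 1206, 1196 and 1104. The change was -0.36 (SE 0.10, adjusted p = 0.00645) in controls and -0.06 (adjusted p = 0.676) in KO. The interaction was 0.30 for Acot1 (adjusted p = 0.846) and 0.47 for Acot7 (adjusted p = 0.856), so neither fall was shown to differ between genotypes. Acot9, a mitochondrial member, was not called.

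Of the 8 peroxins 3 rose in both genotypes. Pex7, the import receptor for proteins with the second type of peroxisomal signal, thiolase among them, rose by 0.90 (SE 0.13, adjusted p = 1.76e-05) and 0.82 (SE 0.13, adjusted p = 5.05e-05) with no overlap. Pex6, part of the ATPase that recycles the other import receptor, rose by 0.70 and 0.95. Pex11a, which drives peroxisome elongation and division, ranged from 357.5 to 653.5 (median 484.6) in 7-day controls and had 652.9, 956.8 and 779.1 at 1 month. In KO the range of 371.4 to 597.4 (median 461.2) moved to 733.9, 836.5 and 935.1. The control female touched the 7-day range and the KO ages were separate, with rises of 0.61 (SE 0.18, adjusted p = 0.0124) and 0.76 (SE 0.18, adjusted p = 0.00258).

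The docking factor gene Pex13 was called lower in controls. It ranged from 194.4 to 288.3 (median 223.6) at 7 days and had 123.2, 225.9 and 204.8 at 1 month, so that only the female left the 7-day range. In KO it had 172.1 to 240.6 (median 194.3) and then 130.8, 196.5 and 270.2. The change was -0.41 (SE 0.16, adjusted p = 0.0437) in controls and -0.16 (adjusted p = 0.438) in KO, and the control call was lost under 17 of 30 alternatives, including the fit with no sex term and the random litter block (adjusted p = 0.102). The receptor Pex5, the ubiquitin ligase Pex2, the docking factor Pex14 and the membrane-protein chaperone Pex19 were not called in either genotype.

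Groups were separate between ages, with 1 month higher, for 11 of the 34 genes in controls (background 11.2%) and for 17 in KO (background 13.4%). With 1 month lower the numbers were 1 (background 21%) and 0 (background 22.1%). Genes whose call held under all 30 alternatives were Acadm, Echs1, Ehhadh, Acaa1a, Acaa1b, Ech1, Pex7 and, as a fall, Acot7 in controls. In KO they were Ppara, Acadm, Echs1, Acaa2, Ehhadh, Acaa1a, Acaa1b, Ech1, Pex6 and Pex7. Without the female 1-month control, 9 genes stayed called in controls (8 higher, 1 lower), and the calls lost were those of Ppara, Crat, Acads, Hadh, Eci2, Acot13, Pex6, Pex11a, Acot1 and Pex13, while calls over all genes went from 851 higher and 1497 lower to 485 and 946. Without the 4 arrays whose Aprt signal went against the label, 11 genes stayed called in KO, all higher, and without the female 1-month KO alone 14 did. Over all genes the fit without the 4 arrays called 464 higher and 762 lower in KO. In controls that fit lost the calls of Eci2, Acot8, Acot13 and Pex13, while Cpt2 and Acaa2 became called higher. Over all genes it called 707 higher and 1303 lower in controls. Left out singly, 1-month control 2 removed the calls of Ppara, Crat, Acads, Pex11a and Pex13 in controls, 1-month KO 2 those of Acads and Eci2 in KO, and 1-month KO 3 those of Hadhb and Eci2. Without 1-month control 3 the control calls of Eci2, Acot13 and Pex13 were lost.

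Other genes of the pathway and of related acyl-CoA, ketone-body and peroxisomal steps, from lists that share no gene with the set, also rose with age in most cases. Of 13 tested genes for carnitine transport, electron transfer and related acyl-CoA steps, 12 rose in controls and 10 in KO, with medians of 0.86 and 1.01. The largest were Acsm2, a medium-chain acyl-CoA synthetase, at 2.62 and 2.60, the isovaleryl-CoA dehydrogenase Ivd at 1.63 and 1.81, the ketone-body enzyme Oxct1 at 1.42 and 1.59, and Gcdh, the glutaryl-CoA dehydrogenase, at 1.26 and 1.40. Of 20 other peroxisomal enzymes and transporters, 14 rose in controls and 12 in KO and none fell, with medians of 0.95 and 0.90. Ephx2, an epoxide hydrolase, rose by 2.60 and 2.47, the hydroxyacid oxidase Hao2 by 1.90 and 2.61, and Phyh, which starts the breakdown of phytanic acid, by 1.75 and 1.82.

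A list of fatty acid uptake and binding genes, PPAR targets, and nuclear receptors and their cofactors was more mixed. It had 10 higher and 3 lower of 26 in controls and 11 and 2 in KO, and its parts were not counted apart. Cyp4b1 rose by 4.03 and 3.88, and Slc27a2, a fatty acid transporter with acyl-CoA synthetase activity, by 1.82 and 2.01. Of 11 fatty acid synthesis genes 6 rose and 2 fell in controls, and 6 rose and 1 fell in KO. Scd1, which desaturates stearate, rose by 3.65 and 3.51 and Scd2 fell by 1.03 in controls. Of 33 oxidative phosphorylation genes 18 rose in controls and 26 in KO, with medians of 0.44 and 0.53 and none called lower.

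Markers of several cell types moved with age as well. Of the 33 proximal tubule markers 24 rose and 1 fell in controls, and 26 rose and 1 fell in KO. Their summed signal went from 72060 to 113200 in 7-day controls to 211100 to 233900 at 1 month, and from 58090 to 95050 to 195900 to 220900 in KO. Acsm2, Cyp4b1 and Hnf4a are on this list as well as on the pathway lists. All 17 tested stroma and matrix markers fell in controls and 16 of 17 in KO, and all 17 cell cycle genes fell in both. The part of these shifts in the results for the oxidation genes was not tested, and in bulk tissue fewer cells of a type and less RNA per cell cannot be told apart. Of 9 white and brown fat markers 1, Lpl, rose in each genotype, and the summed signal of that list was 5265 to 10170 in 7-day controls and 8194 to 11110 at 1 month. Liver markers summed to 726.1 to 1144 and 1496 to 1796 in the same groups. Of these, Ttr is also on the proximal tubule list and had mean signals of 291 and 568.8. Of 7 tested adrenal cortex markers 5 had a lower value at 1 month in controls (median -1.25, 1 called higher and 1 called lower), while in KO 6 had a higher value (median 0.78, 1 called higher). The summed signal of that list was 6126 to 12440 and 8709 to 10930 in controls and 5600 to 11610 and 8618 to 14220 in KO. Skeletal muscle markers summed to 2625 to 5766 in 7-day controls and 4025 to 4819 at 1 month. In KO 2 of 7 rose, with sums of 2160 to 4887 and 3570 to 13760. Pvalb, which is also on the thick limb and distal tubule list, was 1 of those 2. Its mean signal at 7 days and 1 month was 2833 and 3594 in controls and 1769 and 4329 in KO. Every adrenal marker was at or above a signal of 29 on some array of each group. Markers under 29 on all arrays of a group were, in 1-month controls, Cidec of the fat list, Acta1, Myh1, Myh2, Tnni2 and Mb of the muscle list and Fgb and Ahsg of the liver list. In 1-month KO they were Elovl3 (fat), Myh2 and Myh8 (muscle) and Apoa1, Fgb and Ahsg (liver).

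At 7 days no gene of the set was called between the genotypes without the litter block, on a background of 2.54% of genes called higher and 0.679% called lower in KO. At an unadjusted limma p under 0.05 there were 3 of the 34, Acadm and Acaa1a lower and Acot9 higher, against 613 of all 5744 genes tested. The signs leaned 1 way: 31 of the 34 genes were lower in KO (91.2%), against 54.8% of all genes tested, with a median log2 difference of -0.13 against -0.02. The lean spanned the regulator, the carnitine shuttle, all 4 dehydrogenases, all 6 later mitochondrial genes, all 5 peroxisomal genes and all 8 peroxins. The genes share the same arrays, so these signs are not independent, and without the 4 arrays whose Aprt signal went against the label 24 of 34 were lower, with a median of -0.10. Averaged over the 34 genes, the log2 signal was 10.01 to 10.19 on the 7-day control arrays and 9.91 to 10.09 on the KO-labelled arrays. As groups these overlapped, but within each 7-day litter pair the KO-labelled array was the lower. In pairs 1 to 6 the controls had 10.10, 10.14, 10.08, 10.01, 10.19 and 10.19. Their littermates had 9.96, 10.04, 9.99, 9.91, 10.08 and 10.09. Pairs 1, 2 and 4 each hold an array against its Aprt label, and the paired difference of this average was not tested.

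**Figure D3:**
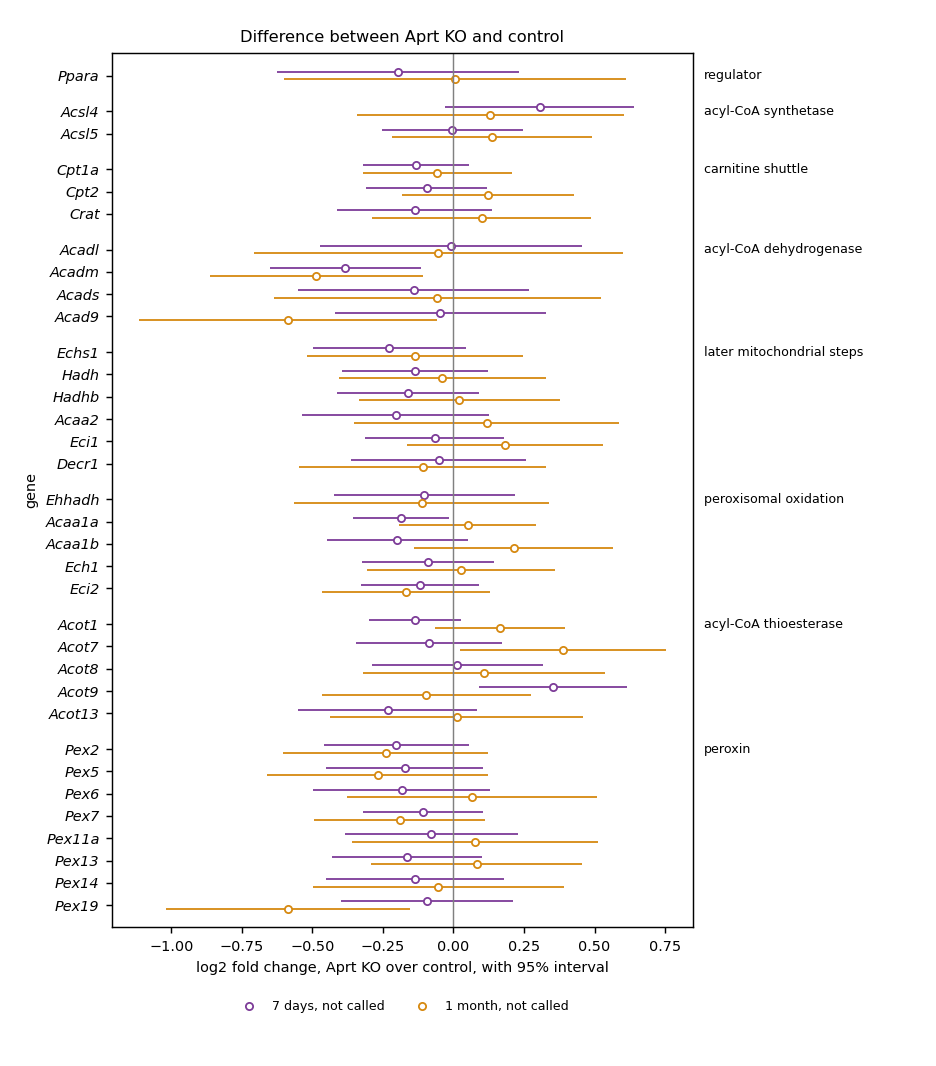
Log2 difference between Aprt KO and control (x axis) for each of the 34 tested genes (y axis, grouped by role), at 7 days (purple) and 1 month (orange); points are limma estimates without the litter block, lines are 95% intervals and open points are not called. At 7 days 31 of 34 points lie left of 0, at 1 month 16 of 34, and the Acadm intervals lie below 0 at both ages.

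Littermates, who had the same sex in every pair, resembled each other, so the comparison was repeated with the litter pair as a block. With a fixed block 5 genes were called lower in KO at 7 days and none higher, on a background of 3.86% lower and 4.84% higher. They were Acadm (-0.38, SE 0.07, adjusted p = 0.00494), Acaa1a (-0.19, SE 0.05, adjusted p = 0.0368), Acaa2 (-0.20, SE 0.06, adjusted p = 0.0402), Acot13 (-0.23, SE 0.06, adjusted p = 0.04) and Acaa1b (-0.20, SE 0.06, adjusted p = 0.0453). With the pair as a random block Acadm (adjusted p = 0.00501) and Acaa1a (adjusted p = 0.0357) were called lower and Acot9 higher (0.35, adjusted p = 0.0282), on a background of 3.8% and 5.29%. With the fixed block and without litter pair 4, 2 genes were called lower, Acadm (adjusted p = 0.0201) and Acot13 (adjusted p = 0.018). Without the 4 pairs that held an array against its label, 3 pairs remained at 7 days and none of the 34 was called, although Acadm was still lower by 0.36 (adjusted p = 0.229).

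Acadm was called lower with both kinds of block. In the 7-day controls of pairs 1 to 6 its signals were 3107, 4563, 3963, 3590, 3793 and 3957. Their KO-labelled littermates had 2408, 3549, 2738, 2539, 3041 and 3337. The KO mouse was the lower of the pair in 6 of 6, and the groups as wholes overlapped. At 1 month the controls of pairs 7 to 9 had 7491, 8296 and 14270 and their littermates 5618, 7253 and 7889. Again the KO was lower in 3 of 3, with overlap between the groups, and Acadm was the 1 gene of the set lower in 9 of 9 pairs (background 1.5%).

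Without the block the Acadm difference was -0.38 (SE 0.13, adjusted p = 0.145) at 7 days and -0.49 (SE 0.18, adjusted p = 0.638) at 1 month. In 6 of 6 pairs at 7 days 6 genes were lower in KO, namely Acadm, Acads, Acaa2, Acaa1a, Acaa1b and Acot1 (background 8.04%), and 1 was higher, Acsl4 (background 7.68%). For Acaa1a the differences were small beside its change with age, with a KO median of 1820 against 2039 in controls. Acaa1b had medians of 2359 and 2684, and Acaa2 of 11450 and 13360. Acot13 was lower in 5 of the 6 pairs, with medians of 1396 and 1644.

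**Figure D4:**
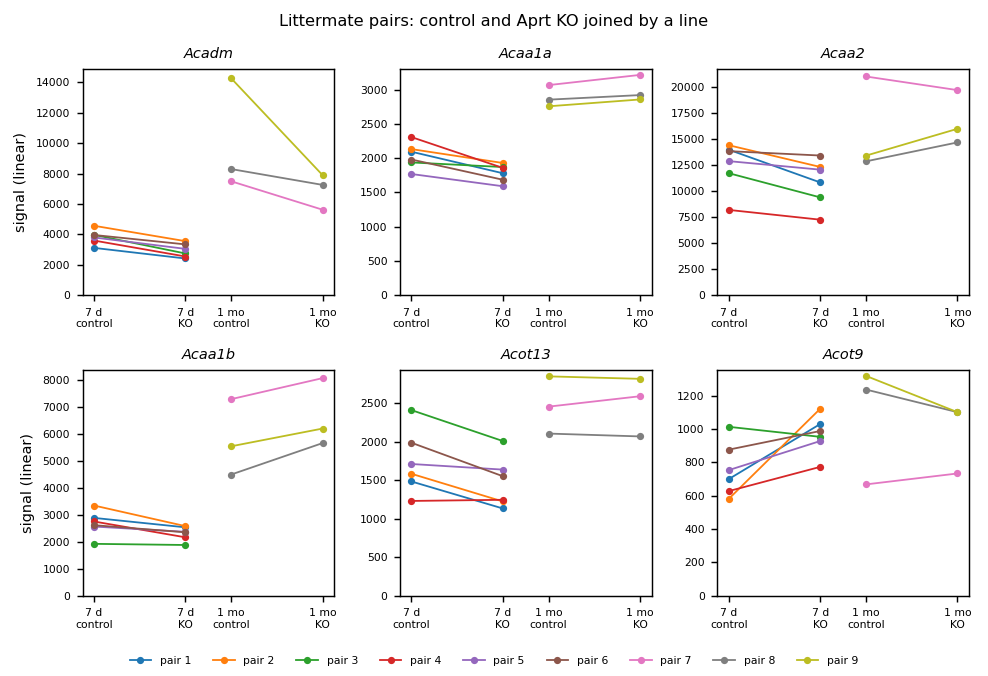
Linear signal (y axis) of control and Aprt KO littermates joined by a line, 1 colour per litter pair, at 7 days (left, 6 pairs) and 1 month (right, 3 pairs), for the 6 genes called at 7 days in a fit with a litter block. The Acadm lines fall from control to KO in 9 of 9 pairs, whereas those of Acaa1b fall at 7 days and rise at 1 month.

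Other lists moved between the genotypes at 7 days. Of 12 tested myeloid markers 11 were higher in KO, with summed signals of 9070 to 14870 against 3817 to 6635 in controls, and Itgam was under a signal of 29 on all arrays. Of 33 proximal tubule markers 2 were called lower, Mep1b at -0.99 and Dpep1 at -0.65, and 25 had a lower value (median -0.18). Their summed signal was 58090 to 95050 in KO and 72060 to 113200 in controls. Of 10 thick limb and distal tubule markers 3 were called lower and 9 had a lower value (median -0.38). Of 17 stroma markers 3 were called higher and 15 had a higher value (median 0.29). Of the oxidative phosphorylation genes 32 of 33 had a lower value in KO, with a median of -0.14, and none was called. All 7 tested adrenal cortex markers had a lower value in KO (median -0.51, none called), with summed signals of 5600 to 11610 against 6126 to 12440. The part of these differences in those of the oxidation genes was not tested. Among the related pathway genes Oxct1 (-0.49, SE 0.12, adjusted p = 0.0362) and the peroxisomal membrane protein gene Pxmp2 (-0.50, SE 0.13, adjusted p = 0.0476) were called lower. A lower value in KO was found for 17 of 20 other peroxisomal genes (median -0.14). It was also found for 10 of 13 genes for carnitine transport, electron transfer and related steps (median -0.10).

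At 1 month no gene of the set was called without the litter block, on a background of 0.296% higher and 0.0174% lower. The signs were even, with 16 of 34 lower in KO and a median of 0.01 against 0.00 for all genes. With the fixed block Acadm was called lower (-0.49, SE 0.10, adjusted p = 0.0418; background 0.122% lower and 1.25% higher), and with the random block as well (adjusted p = 0.0375; background 0.261% and 1.78%). That call was lost with the fixed block when litter pair 4, a 7-day pair, was left out of the shared estimate of the spread (adjusted p = 0.0517), and also without the 4 pairs that held an array against its label (-0.52, adjusted p = 0.198, 2 pairs). At an unadjusted limma p under 0.05 there were 4 of the 34 genes, against 265 of all 5744 tested. They were Acadm, Acad9 and Pex19, lower, and Acot7, higher. Pex19 had 790.1, 1011 and 621.4 in controls and 408.7, 550.2 and 616.6 in KO, with no overlap, a difference of -0.59 (SE 0.21, adjusted p = 0.54). Groups were separate for 2 genes with KO lower, Pex19 and Pex5 (background 1.95%), and for 1 with KO higher, Cpt2 (background 4.2%). Acad9 read 506.7, 876.2 and 1126 against 422.3, 707 and 468.2, which overlap, a difference of -0.59 (adjusted p = 0.894). In 3 of 3 pairs 9 genes were lower (background 13.9%) and 6 higher (background 16.1%). Stroma and matrix markers were higher in KO for 6 of 17, with summed signals of 16990 to 18960 against 9511 to 11980, and 6 of 7 adrenal cortex markers had a higher value in KO (median 0.89, none called). The part of these in the values above was not tested.

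The genotype by age interaction was called for none of the 34 genes, on a background of 0.139% higher and 0.261% lower, and for none with the fixed block (background 0.958% and 0.662%) or the random block (1.32% and 1.15%). At an unadjusted limma p under 0.05 there were 2 of the 34, Acot1 and Acot7, both positive, against 307 of all 5744 genes tested. For Acadm the interaction was -0.10, with a 95% interval from -0.57 to 0.36, and for Ehhadh -0.01, from -0.56 to 0.54, so a change in the genotype difference of up to about these sizes was not excluded. Acaa1b had the interaction with the lowest adjusted p under the fixed block (0.41, SE 0.10, adjusted p = 0.0598), its KO values being lower than the littermates' in 6 of 6 pairs at 7 days and higher in 3 of 3 at 1 month.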

How the data were processed

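Total kidney RNA of 18 mice was measured on 18 arrays, 1 per mouse. The authors deposited linear signal intensity values, for which the submitters' processing notes name MAS5 and GCOS; versions and build were not given in the sources used here. Probe sets were named from the platform's probe-to-gene table: 10833 of 12488 had 1 symbol, 396 had several, and 66 were control probe sets, left out. Signals were tested as log2(signal + 29), 29 being the 20th percentile of all values, so that folds of dim genes are understated. Of 8251 genes, 5744 had a brightest probe set with a mean at or above 118.6. limma 3.58.1 in R 4.3.3 (lmFit, eBayes with trend) was fitted to all 18 arrays with 4 groups and a sex term per age, sexes weighted equally, with 12 residual degrees of freedom; Benjamini-Hochberg adjustment ran over the 5744 genes and calls were made at 0.05. Intervals are 95%. The precision is limited by the number of arrays, 3 to 6 a group.

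The litter pair was fitted as a fixed or random block (consensus correlation 0.567). The pairing comes from the labels. Deviations of littermates from their group means correlated at 0.239 to 0.673 in 9 pairs, and 12 of 18 arrays correlated best with their littermate. Both mice of each pair had the same sex, and sex was not removed from these deviations. The part of shared sex in the correlations was not tested. The fixed block is not defined for age. The script was tested on simulated data. Members, roles and lists were chosen with earlier results of these data known. Ranges and medians at 7 days and every value at 1 month were given for Ppara, Cpt1a, Cpt2, Acadm, Acadl, Ehhadh, Acaa1a, Acaa2 and Pex11a, and for the 4 called genes with the largest rise and fall in each comparison; genes of other lists were named from the 4 with the largest called change. Pex19, Pex5, Acad9 and the genes called with a block were named after their values were seen. Figures were drawn with matplotlib 3.10.9.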

Additional observations from a re-analysis of the deposited data

Results flagged for a closer look

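Over 68 combinations of the 34 genes with the 7-day control and KO groups, 2 values stood apart from the rest of their group of 6 by more than Dixon's 95% limit, which chance passes in about 1 of 20 groups. Acaa2, the mitochondrial thiolase, had a signal of 8189 in 7-day control 4, the lowest of its group, and the next was 11720. Ech1, the dienoyl-CoA isomerase, had 2133 in 7-day KO 4, and the next was 2789. Both arrays belong to litter pair 4, whose highest signals of 10767 and 10167 were the lowest of all arrays. Without that pair and without the block, no gene of the set was called between genotypes at 7 days.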

How the results depend on the processing

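No called value of a gene changed sign under any of the 33 alternatives (30 for age, where the fixed block is not defined). Signs of genes called in neither fit changed in 40 values at 7 days, 32 at 1 month and 60 for the interaction, where all genes together had 1120 values each. For age such signs changed in 14 values in controls and 9 in KO. Each age comparison had 1018 values in all, but these include those of the 19 genes called in controls and the 20 called in KO. The litter block moved the genotype results: from 0 genes to 5 (fixed block), 3 (random block) and 2 (fixed block without pair 4) at 7 days, and from 0 to 1 with each block at 1 month; it changed no other call count of the set by over 1.5 times. Over all genes the fixed block gave 278 higher and 222 lower at 7 days against 146 and 39, and 72 and 7 at 1 month against 17 and 1. Leaving out 1 array at a time gave 0 to 1 genes at 7 days (Acot9, without 7-day control 3), 0 to 0 at 1 month, 9 to 22 for age in controls and 14 to 21 for age in KO. The lowest control count came without the female 1-month control and the lowest KO count without the female 1-month KO; each leaves 2 males at 1 month in that genotype. Without the 4 arrays against their Aprt label, age in KO had 11 calls in place of 20.

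Quantile normalization moved the median age change of all genes from -0.11 to 0.01 in controls and from -0.12 to 0.00 in KO; 18 genes of the set were called in each, 16 and 17 of them shared with the main fit, and the set's medians became 0.43 and 0.47. With no sex term the set's median in controls was 0.49. The pair 4 alternatives and the blocked fit without pairs against their label were chosen after seeing the data. The limits are 3 arrays a group at 1 month, 1 female in each, and Aprt signals that did not separate the labels at 7 days. The p-values measure the spread between these mice. The cause of each change of count was not tested.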
